A study of Mus musculus with 9 samples.

Results

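The genes described here carry symbols given to nuclear genes for subunits of the mitochondrial respiratory chain and ATP synthase. Some may belong to another complex or to none, because symbols alone placed them. They were chosen by symbol from the count table: names starting Nduf for complex I, Sdha to Sdhd for complex II, Uqcr for complex III, Cox4 to Cox8 for complex IV and Atp5 for complex V. Of 45808 genes in the table, 88 matched, 4 were left out as pseudogene symbols and 9 had 0 counts in all libraries. The remaining 75 genes were 36 of complex I, 4 of complex II, 8 of complex III, 11 of complex IV and 16 of complex V, and 73 of them had a gene model, on 18 chromosomes. No measured level entered the choice, apart from the removal of genes at 0.

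RNA came from ICOS+ CD4 T cells sorted out of MC38 tumours, a colon adenocarcinoma line, grown in C57BL/6J mice and taken on day 12 after the tumour cells were injected. Each library was 1 mouse: 3 mice were controls, 3 received anti-CTLA-4 and 3 received anti-PD-1. Both antibodies block inhibitory receptors of T cells, and the series asks whether they act through distinct cellular mechanisms. What the controls were given, the doses, the antibody clones and the number of cells sorted were not given in the sources used here, and the amplified libraries started from little RNA. P-values below therefore measure the spread between these mice, with the amplification included. In bulk RNA, fewer cells of a type and less RNA per cell cannot be told apart.

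The respiratory chain passes electrons from NADH (complex I) and succinate (complex II) through ubiquinone, complex III and cytochrome c to oxygen at complex IV, and complex V uses the resulting proton gradient to make ATP. Complex II is the only one built wholly from nuclear genes, and it is also an enzyme of the tricarboxylic acid cycle. Activated T cells use both glycolysis and respiration, and regulatory T cells are known for leaning on respiration.

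One library stood apart before any of these genes was considered. Anti-CTLA-4 replicate 2 held 2662 genes at 5 counts per 1e+06 gene counts (CPM) or more, against 4209 to 6309 in the other 8, and Cd4, the marker of the sort, at 24.5 CPM against 308 to 808 CPM. Its 10 T cell markers summed to 6316 CPM, against 13650 to 20960 CPM elsewhere. Within that list Cd3d, Cd3g and Trac, which encode parts of the T cell receptor complex, were higher there than in any other library (696, 649 and 632 CPM, against at most 289, 578.5 and 612 CPM), while Cd3e, another part, was at 0.590 CPM against at least 347 CPM. Its 16 macrophage and monocyte markers summed to 8140 CPM against 271 to 1194 CPM, with Fcgr1 at 0, and its 8 fibroblast markers to 1597 CPM against 31.4 to 378 CPM, with Lum, Pdgfrb and Fap at 0. In the other 8 libraries Icos stood at 1706 to 2876 CPM, Cd4 was present, and Cd8a was at 0 in all 9. The part of these other cell types in the levels below was not tested, and the fold changes and sums that it moves most are also given without it.

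Promoter windows are shown for 5 genes on which the results turn: the 3 genes that encode the same mature subunit c of ATP synthase, and the 2 genes that were detected in every control library and in no treated one. Each window runs 5′ to 3′ along the gene's strand, 100 bases before to 30 bases after the RefSeq start (GRCm38.p6). Capitals mark GCGCANGCG, most of the spelling bound by NRF1, in Atp5g2 (on both strands, overlapping) and Atp5g3, CACGTG, an E-box, in Atp5g1, and CCGGAAG, an ETS spelling, in Ndufb7, on either strand. None of these spellings lies in the Uqcr10 window. Atp5g1 is at chr11:96075602-96075731 (minus strand), Atp5g2 at chr15:102671018-102671147 (minus), Atp5g3 at chr2:73911297-73911426 (minus), Uqcr10 at chr11:4704315-4704444 (minus) and Ndufb7 at chr8:83566658-83566787 (plus).
Atp5g1: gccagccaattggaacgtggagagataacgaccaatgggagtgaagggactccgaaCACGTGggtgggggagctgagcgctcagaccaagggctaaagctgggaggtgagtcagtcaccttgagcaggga
Atp5g2: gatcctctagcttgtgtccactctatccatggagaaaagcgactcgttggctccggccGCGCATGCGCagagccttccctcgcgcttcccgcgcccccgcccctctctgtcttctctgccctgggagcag
Atp5g3: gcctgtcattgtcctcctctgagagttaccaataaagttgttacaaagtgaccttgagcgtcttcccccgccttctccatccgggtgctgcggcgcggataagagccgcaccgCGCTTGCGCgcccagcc
Uqcr10: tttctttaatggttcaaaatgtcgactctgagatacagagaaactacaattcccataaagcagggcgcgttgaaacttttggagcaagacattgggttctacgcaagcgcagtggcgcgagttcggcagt
Ndufb7: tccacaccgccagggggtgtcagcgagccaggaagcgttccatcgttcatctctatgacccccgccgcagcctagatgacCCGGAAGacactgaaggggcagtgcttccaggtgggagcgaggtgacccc

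Over the 62 genes with a RefSeq promoter, 10 spellings were searched on both strands, from 250 bases before to 50 after the start. GCGCANGCG was in 20 of the 62 (32.3%), against 7.0% of 27025 promoters of all genes and 9.6% of 17491 promoters of coding genes. GCGCATGCG, which the first spelling includes, was in 8 (12.9%, against 2.0% of all and 2.6% of coding), and CATGCGC, which overlaps it, in 13 (21.0%, against 4.4% and 5.4%). The ETS spelling CCGGAAG was in 16 (25.8%, against 9.9% and 12.9%), and CCGGAAGT, which extends it, in 5 (8.1%, against 4.3% and 5.7%). For YY1, AANATGGCG was in 10 (16.1%, against 2.8% and 3.6%) and AAGATGGCG, which it includes, in 7 (11.3%, against 1.6% and 2.1%). The CRE spelling TGACGTCA was in 4 (6.5%, against 2.0% and 2.5%). The GC box GGGGCGGGG, in 9 (14.5%, against 12.9% and 17.3%), and CACGTG, in 5 (8.1%, against 8.1% and 8.9%), were near their share elsewhere. These matches describe the letters of the windows, with no test, and say nothing on whether a factor was bound in these cells.

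Each mouse's library read a different selection of the 75 genes. A gene was called detected at 5 CPM or more, which is 128 to 208 counts in these libraries. Of the 675 pairs of a gene and a library, 385 (57%) reached that level, 261 (38.7%) were below 0.5 CPM, among them 105 with no count, and only 29 (4.3%) lay between. The values were thus mostly either clearly present or close to nothing, in the same gene, between mice of 1 group. A gene at 0 in a library may have stood at up to 0.0723 to 0.118 CPM by counting error alone, the level of 3 counts.

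The control libraries held 48, 51 and 50 detected genes, the anti-CTLA-4 libraries 48, 17 and 44, and the anti-PD-1 libraries 43, 44 and 40. The anti-PD-1 libraries all lay below the controls, at 42.3 ± 2.08 against 49.7 ± 1.53 (SD, n = 3), and anti-CTLA-4 replicate 1 lay level with the lowest control. Without its replicate 2 the anti-CTLA-4 mean was 46.0 in place of 36.3. The same direction held for all genes counted together, with 6051 to 6309 genes at 5 CPM in controls and 4209 to 5878 under anti-PD-1. The part of that difference in the counts here was not tested.

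Summed over the 75 genes, CPM was 5903, 5291 and 4904 in controls, 4871, 5358 and 5375 under anti-CTLA-4 and 4898, 6900 and 4483 under anti-PD-1. The 3 groups overlapped, at 5366 ± 504, 5201 ± 286 and 5427 ± 1292 CPM. These sums are shares of each library: with TMM factors (trimmed mean of M values, a scaling between libraries) the means became 4398, 7525 and 5449, with the anti-CTLA-4 mean set mostly by the factor of 0.407 for replicate 2. In that library the sum was of ordinary size but rested on few genes. The median detected gene stood at 261.9 CPM there against 64.1 to 92.8 CPM in the other 8, and the top 3 genes, Atp5b, Ndufb8 and Cox7c, held 44.6% of the sum against 23.1% to 31.2%.

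**Figure D1:**
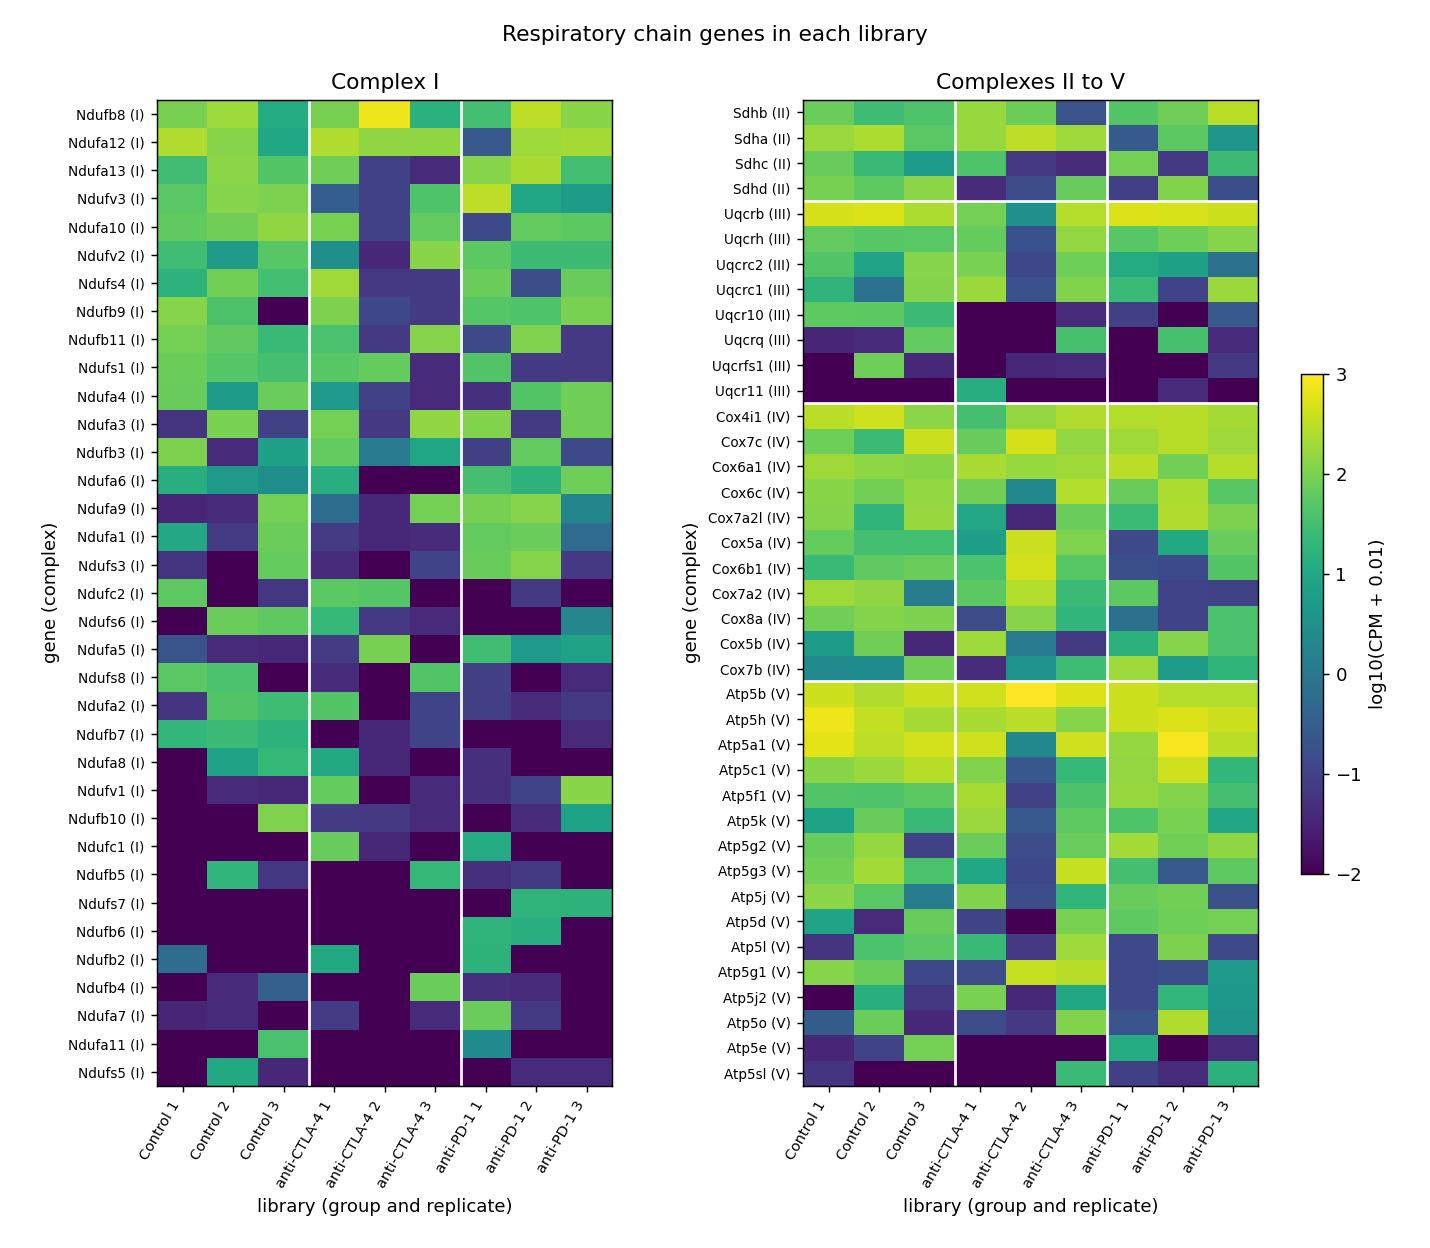
Level of 74 of the 75 genes (vertical axis, with the complex of each) in each of the 9 libraries (horizontal axis), as log10 of CPM plus 0.01, with white lines between groups and between complexes II to V. Most cells are either bright or dark: over all 75 genes, 57% of gene and library pairs reached 5 CPM and 38.7% were below 0.5 CPM, and anti-CTLA-4 replicate 2 held 17 detected genes.

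Detection differed by complex. Complex IV genes reached 5 CPM in 81.8% of gene and library pairs, complex II in 72.2%, complex V in 66.7%, complex III in 51.4% and complex I in 44.8%. Genes read in all 9 libraries were Atp5b, Atp5h, Cox4i1, Cox6a1, Cox7c and Ndufb8, 6 of the 75 (8%), against 9.6% of the 11126 genes that reached 5 CPM anywhere. At the other end 6 genes (8%, against 22.9%) were read in 1 library only: Ndufa7, Ndufa11, Ndufb4, Ndufs5, Uqcr11 and Uqcrfs1. All 3 controls held 34 of the 75 genes (45.3%, against 32.4% of the 11126), all 3 anti-PD-1 libraries 24 (32%, against 22.9%) and all 3 anti-CTLA-4 libraries 11 (14.7%, against 14.1%).

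**Figure D2:**
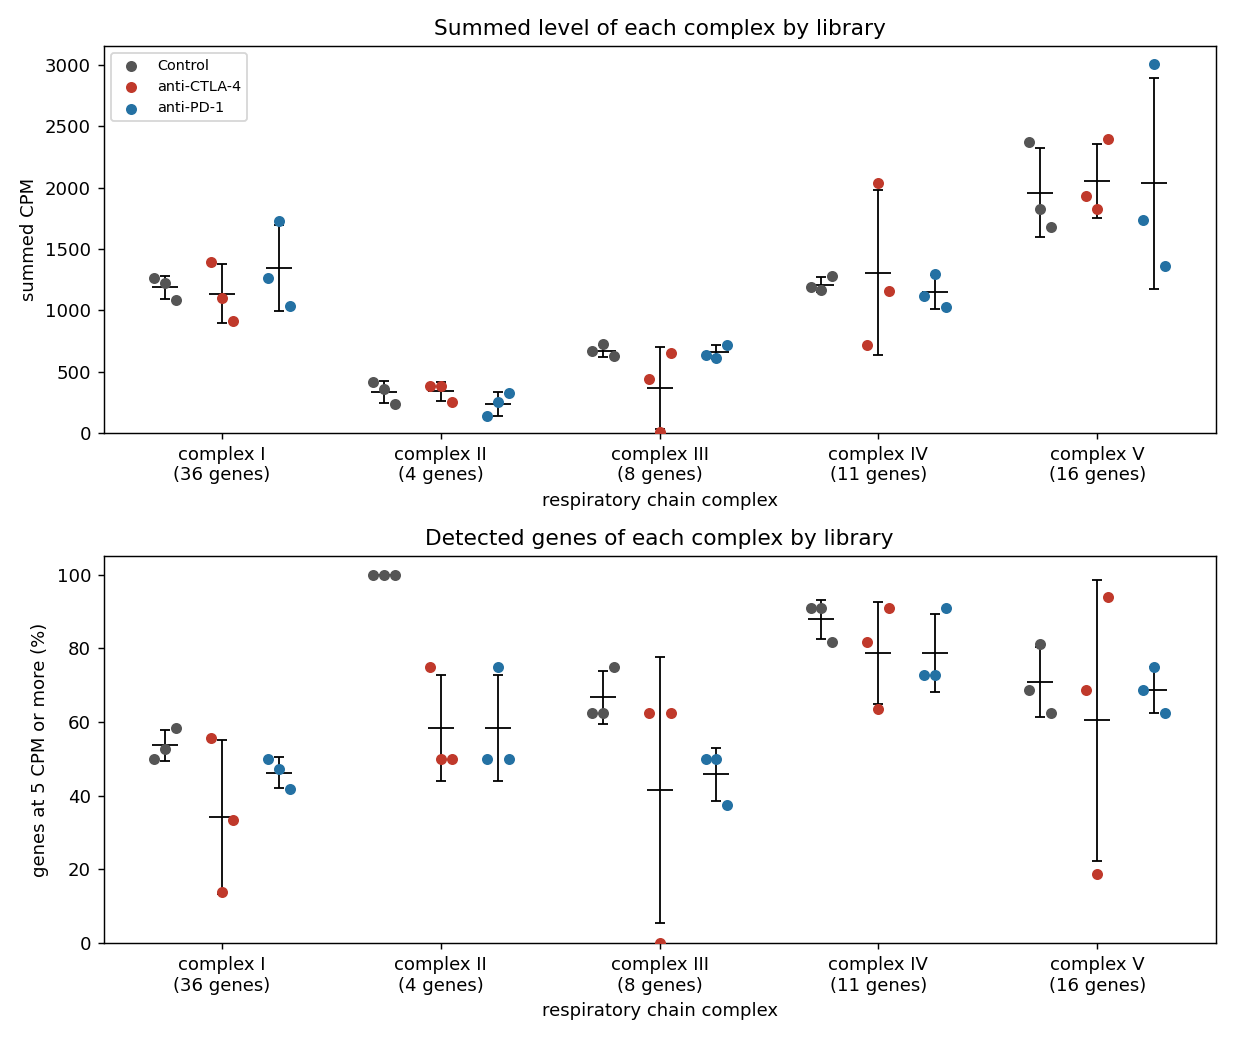
Upper plot: CPM summed over the genes of each complex; lower plot: percent of its genes at 5 CPM or more. Points are libraries, coloured by group, and the bars are the group mean and SD (n = 3). Summed levels overlap between groups except for the point near 0 for complex III, which is anti-CTLA-4 replicate 2, and complex II is complete in the 3 controls and in none of the 6 treated libraries.

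Complex I, the entry point for electrons from NADH, summed to 1189 ± 94.1 CPM in controls, 1137 ± 242 CPM under anti-CTLA-4 and 1346 ± 352 CPM under anti-PD-1. Of its 36 genes 18, 19 and 21 were detected in the controls, 20, 5 and 12 under anti-CTLA-4 and 18, 17 and 15 under anti-PD-1. No library held all 7 nuclear core subunits, which carry the flavin, the iron-sulfur clusters and the quinone site: 3 or 4 were read in controls, 3, 1 and 2 under anti-CTLA-4 and 4, 4 and 3 under anti-PD-1.

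Ndufs1, the largest iron-sulfur subunit, was read in all 3 controls, at 76.9, 48.3 and 34.0 CPM. It stood at 51.0, 65.2 and 0.0306 CPM under anti-CTLA-4 and at 44.1, 0.0604 and 0.0584 CPM under anti-PD-1, so 3 of 6 treated libraries were near 0 and the groups overlapped. Ndufv1, which binds NADH, was at most 0.0322 CPM in controls, and was read only in anti-CTLA-4 replicate 1 (64.7 CPM) and anti-PD-1 replicate 3 (131 CPM), with at most 0.0906 CPM in the other treated libraries. Ndufs3, another core subunit, was at most 0.0918 CPM under anti-CTLA-4, and stood at 0.0482, 0 and 65.5 CPM in controls and 68.5, 125 and 0.0584 CPM under anti-PD-1. Each of these core genes was thus present in some mice and nearly missing in others of at least 1 group.

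Per kilobase of exon, the highest accessory subunits of complex I were Ndufa12 (93.9 CPM per kb on average over the 9 libraries), Ndufa13 (59.8 CPM per kb) and Ndufa1 (58.8 CPM per kb). Ndufa12 stood at 254, 121 and 9.73 CPM in controls, 253, 147 and 147 CPM under anti-CTLA-4 and 0.235, 186 and 207 CPM under anti-PD-1, missing from 1 mouse only. Ndufa13 stood at 29.5, 132 and 44.9 CPM in controls and 121, 232 and 31.2 CPM under anti-PD-1, while under anti-CTLA-4 only replicate 1 held it, at 82.6 CPM against 0.0843 and 0.0306 CPM in replicates 2 and 3. Ndufa1, needed for assembly of the membrane arm, was at most 0.0656 CPM in the anti-CTLA-4 libraries. It stood at 10.3, 0.0643 and 74.8 CPM in controls and 64.1, 71.8 and 0.555 CPM under anti-PD-1. Ndufc2, a small membrane subunit, was read in 1 control (58.7 CPM), in anti-CTLA-4 replicates 1 and 2 (55.6 and 47.7 CPM) and in no anti-PD-1 library, with at most 0.0604 CPM where it was not read.

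Ndufb8, a membrane arm subunit, was the one complex I gene read in all libraries, at 94.4, 184 and 11.7 CPM in controls, 92.9, 744 and 15.8 CPM under anti-CTLA-4 and 31.5, 320 and 129 CPM under anti-PD-1. Its fitted log2 change for anti-CTLA-4 against Control was 3.04 (SE 1.30, edgeR's quasi-likelihood test, adjusted p = 0.432), and -0.68 without anti-CTLA-4 replicate 2, and the groups overlapped. Ndufa4, first named as a complex I gene and later placed with complex IV, stood at 68.6, 5.21 and 70.9 CPM in controls and at 5.02, 0.0843 and 0.0306 CPM under anti-CTLA-4, and at 0.0392, 46.3 and 82.6 CPM under anti-PD-1. Ndufa5 was near 0 in controls, at most 0.193 CPM, and stood at 29.3, 4.99 and 7.71 CPM under anti-PD-1 and at 0.0656, 95.4 and 0 CPM under anti-CTLA-4. The control and anti-PD-1 libraries did not overlap for Ndufa5 (fitted log2 change 7.40, SE 3.98, adjusted p = 0.840).

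Ndufb7 (ENSMUSG00000033938, GENCODE M21, chromosome 8, 83566671 to 83571626), an accessory subunit of the membrane arm, was one of 2 respiratory genes read in every control and in no treated library. It stood at 20.2, 26.8 and 16.9 CPM in controls, 0, 0.0281 and 0.0918 CPM under anti-CTLA-4 and 0, 0 and 0.0292 CPM under anti-PD-1. Pooled over mice, 2276 control counts faced 4 counts under anti-CTLA-4, a CPM ratio of 518 (exact 95% interval 202 to 1904), and 1 count under anti-PD-1, a ratio of 1950 (349.6 to 77050); both intervals cover counting error only. Neither comparison passed edgeR's test over all genes (adjusted p = 0.457 and 0.823), in a table where the spread between mice was a coefficient of variation of 1.84. DESeq2 called it lower in both (adjusted p = 0.00627 and 0.000197). The comparisons share the control libraries and are not independent of each other.

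Complex II, which oxidises succinate, was detected whole in 3 of 3 control libraries and in 0 of 6 treated ones. Its catalytic flavoprotein Sdha stood at 180, 245 and 52.7 CPM in controls, 172, 311 and 182 CPM under anti-CTLA-4 and 0.274, 54.1 and 4.21 CPM under anti-PD-1. The anti-CTLA-4 libraries all lay above the anti-PD-1 libraries for Sdha, with a fitted log2 change of 3.996 (SE 1.76, adjusted p = 0.330), so the difference did not pass the test; the change was 2.84 without anti-CTLA-4 replicate 2 and 7.44 without anti-PD-1 replicate 2. The iron-sulfur subunit Sdhb stood at 72.3, 28.3 and 42.7 CPM in controls, 168, 74.1 and 0.184 CPM under anti-CTLA-4 and 45.6, 83.8 and 297 CPM under anti-PD-1, missing from 1 mouse. 

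The membrane anchors were the more often missing members of complex II. Sdhc stood at 70.0, 24.4 and 5.45 CPM in controls, 41.1, 0.0562 and 0.0306 CPM under anti-CTLA-4 and 88.6, 0.0604 and 26.9 CPM under anti-PD-1. Sdhd stood at 92.7, 58.2 and 136 CPM in controls, 0.0328, 0.141 and 68.2 CPM under anti-CTLA-4 and 0.0783, 115 and 0.146 CPM under anti-PD-1. Every treated library thus lacked at least 1 of the 4 genes: Sdhd was below the limit in anti-CTLA-4 replicate 1, Sdhc and Sdhd in replicate 2, and Sdhb and Sdhc in replicate 3. Sdha and Sdhd were below it in anti-PD-1 replicates 1 and 3, and Sdhc in replicate 2. At a limit of 1 CPM the count of complete libraries was again 3 of 3 and 0 of 6, and at 20 CPM it was 2 of 3 and 0 of 6; the nearest values to the 5 CPM limit were Sdhc in Control replicate 3 and Sdha in anti-PD-1 replicate 3. The summed level did not separate the groups, at 336 ± 90.8, 339 ± 76.9 and 239 ± 97.7 CPM in the order control, anti-CTLA-4, anti-PD-1, and none of the 4 genes passed edgeR's test in any comparison. No test was run on the count of complete libraries, which was noticed in these data. By the same count, the 5 genes of the F1 head of ATP synthase were complete in Control replicate 3 and anti-PD-1 replicate 1 only. Counted over all genes together, treated libraries also held fewer, 2662 to 5878 at 5 CPM or more against 6051 to 6309 in controls. The part of that difference in the completeness of complex II was not tested.

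Complex III, which hands electrons to cytochrome c, was almost unread in anti-CTLA-4 replicate 2. Its 8 genes summed to 3.66 CPM there, with 0 detected, against 443.9 to 724 CPM and 3 to 6 detected in the other 8 libraries. Controls stood at 672 ± 49.2 CPM and anti-PD-1 libraries at 656 ± 57.4 CPM, while the anti-CTLA-4 mean of 367 ± 332 CPM became 548.5 without that library. No other complex came near 0 in any library: in anti-CTLA-4 replicate 2 complexes I, II, IV and V summed to 1102, 385, 2039 and 1828 CPM.

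Uqcrb, a subunit at the quinone side, had the highest level per length of the 75 genes, 390 CPM per kb. It stood at 483, 529 and 239 CPM in controls, 89.1, 3.18 and 276 CPM under anti-CTLA-4 and 550, 491 and 414 CPM under anti-PD-1. For Uqcrb the anti-CTLA-4 libraries lay below all anti-PD-1 libraries, and replicate 3 alone reached into the control range (fitted log2 change against anti-PD-1 -2.03, SE 1.23, adjusted p = 0.450; -1.44 without replicate 2). Of the 76-base stretches of Uqcrb, 16.4% also occur in other genes, so its counts may be read low. Uqcrh, the hinge protein, stood at 62.5, 51.2 and 53.2 CPM in controls, 66.1, 0.169 and 152 CPM under anti-CTLA-4 and 51.0, 77.1 and 126 CPM under anti-PD-1. Outside anti-CTLA-4 replicate 2 it was among the steadier genes.

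The core protein gene Uqcrc1 stood at 17.5, 0.772 and 120 CPM in controls, 178, 0.169 and 114 CPM under anti-CTLA-4 and 25.2, 0.0906 and 180 CPM under anti-PD-1. Uqcrfs1, which encodes the Rieske iron-sulfur protein and is indispensable for the enzyme, was read in 1 library only, Control replicate 2, at 79.6 CPM, and was at most 0.0584 CPM in the other 8. The gene was thus nearly unread in 8 libraries. Whether a value near 0 in these libraries means that a gene was off was not tested.

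Uqcr10 (ENSMUSG00000059534, chromosome 11, 4701973 to 4704342), a small subunit of complex III, was the other gene read in every control and in no treated library. It stood at 57.4, 55.6 and 26.7 CPM in controls, 0, 0 and 0.0306 CPM under anti-CTLA-4 and 0.0783, 0 and 0.234 CPM under anti-PD-1. Pooled, 5067 control counts faced 1 count under anti-CTLA-4, a CPM ratio of 4615 (exact 95% interval 828 to 182300), and 10 counts under anti-PD-1, a ratio of 434 (236 to 906), again counting error only. Uqcr10 did not pass edgeR's test (adjusted p = 0.435 and 0.867), and DESeq2 called it lower in both (adjusted p = 1.63e-05 and 0.000151). At limits of 1 and 5 CPM Ndufb7 and Uqcr10 were the 2 genes with this pattern, and at 20 CPM only Uqcr10. They make 2.7% of the 75 genes, against 35 of 11126 genes (0.315%). The pattern was noticed in these data, and no test was run on this share, which rests on 2 genes. No gene of the 75 showed the reverse, which was not counted over all genes. The reverse would need detection in every treated library, and all 3 anti-CTLA-4 libraries together held only 11 of the 75. Its absence therefore cannot be set against the 2 genes.

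**Figure D3:**
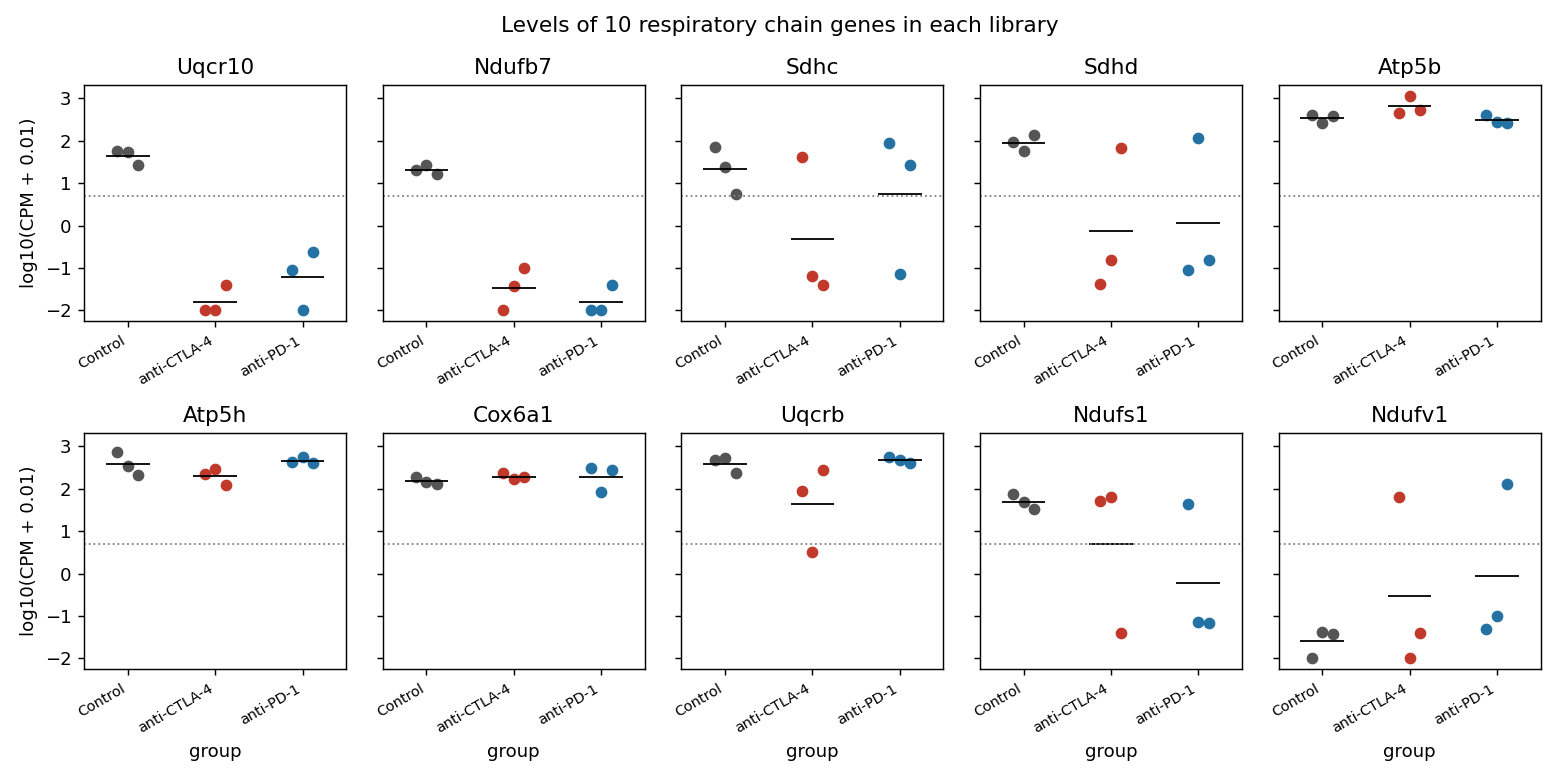
Level of 10 genes in each library as log10 of CPM plus 0.01 (vertical axis) by group (horizontal axis); bars are means on that scale and the dotted line is 5 CPM. Uqcr10 and Ndufb7 lie above the line in the 3 controls and below it in the 6 treated libraries, Atp5b, Atp5h and Cox6a1 lie above it in all 9, and the others split within groups.

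Complex IV, which reduces oxygen, was the most evenly read, with 10, 10 and 9 of 11 genes in controls, 9, 7 and 10 under anti-CTLA-4 and 8, 8 and 10 under anti-PD-1. It summed to 1210 ± 59.9, 1307 ± 672 and 1150 ± 137 CPM, and the anti-CTLA-4 mean was 940.2 without replicate 2. Cox6a1, the ubiquitous isoform of subunit VIa and the second highest of the 75 per length (272 CPM per kb), stood at 189, 143 and 131 CPM in controls, 233, 168 and 190 CPM under anti-CTLA-4 and 310, 84.3 and 273 CPM under anti-PD-1. It varied less between mice than the other complex IV genes given here. Cox4i1, an early-assembling subunit beside the mitochondrially encoded core, stood at 302, 441.5 and 134 CPM in controls, 33.1, 154 and 248 CPM under anti-CTLA-4 and 268, 287 and 213 CPM under anti-PD-1.

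Cox7c stood at 77.2, 25.5 and 392.5 CPM in controls, 68.1, 486 and 154 CPM under anti-CTLA-4 and 191, 293 and 181 CPM under anti-PD-1, with 19.5% of its 76-base stretches shared with other genes. Cox5a, a partner of Cox4i1 in early assembly, stood at 65.6, 32.3 and 31.2 CPM in controls, 6.20, 391 and 110 CPM under anti-CTLA-4 and 0.118, 10.97 and 68.9 CPM under anti-PD-1. Cox6b1, on the side facing cytochrome c, stood at 24.7, 61.0 and 72.9 CPM in controls, 37.9, 446 and 49.9 CPM under anti-CTLA-4 and 0.157, 0.121 and 45.0 CPM under anti-PD-1. Both had their highest value in anti-CTLA-4 replicate 2 and fitted changes below an unadjusted p of 0.05 against anti-PD-1, but neither passed after adjustment.

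Cox8a stood at 81.0, 120 and 104 CPM in controls and at 0.705, 0.0906 and 39.1 CPM under anti-PD-1, without overlap, and at 0.131, 126 and 19.2 CPM under anti-CTLA-4. It did not pass in any comparison. Cox7a2 was read in Control replicates 1 and 2 (193 and 147 CPM), in each anti-CTLA-4 library (55.2, 262 and 25.4 CPM) and in 1 anti-PD-1 library (55.0 CPM), and was at most 1.29 CPM in the other 3. Cox7a2l, which helps join complexes III and IV into supercomplexes, stood at 120, 18.8 and 170 CPM in controls, 10.6, 0.0281 and 71.2 CPM under anti-CTLA-4 and 25.03, 252 and 105 CPM under anti-PD-1, missing from anti-CTLA-4 replicate 2 only. The isoforms known from heart, muscle, lung, testis or hypoxic cells were at 0 counts in all 9 libraries: Cox4i2, Cox6a2, Cox6b2, Cox7a1, Cox7b2, Cox8b, Cox8c and Ndufa4l2. Atp5s, an ATP synthase coupling factor, was also at 0; each of these may stand at up to 0.0723 to 0.118 CPM, depending on depth.

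Complex V, the ATP synthase, had the largest summed level of the 5 complexes in 8 of 9 libraries, at 1959 ± 363, 2052 ± 303 and 2037 ± 860 CPM, with 11, 13 and 10 of 16 genes detected in controls, 11, 3 and 15 under anti-CTLA-4 and 11, 12 and 10 under anti-PD-1. Atp5b, the catalytic beta subunit of the F1 head, stood at 415, 257 and 391 CPM in controls, 441, 1163 and 545 CPM under anti-CTLA-4 and 415, 281 and 262 CPM under anti-PD-1. The 3 anti-CTLA-4 libraries lay above all 6 others. The fitted log2 change was 2.12 against Control (SE 0.89, adjusted p = 0.432) and 2.05 against anti-PD-1 (SE 0.88, adjusted p = 0.330), and without anti-CTLA-4 replicate 2 it was 0.66 and 0.60, so neither difference passed the test over all genes.

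Atp5a1, the alpha subunit that alternates with beta in the F1 head, did not follow Atp5b: it stood at 630, 320 and 451.5 CPM in controls, 432, 2.19 and 429 CPM under anti-CTLA-4 and 163, 886 and 308 CPM under anti-PD-1. In anti-CTLA-4 replicate 2, where Atp5b was at its highest, Atp5b was the only one of the 5 F1 genes detected. Atp5h, in the stalk that holds the head, was read in all 9 libraries, at 731, 347 and 215 CPM in controls, 230, 299 and 122 CPM under anti-CTLA-4 and 423, 552 and 409 CPM under anti-PD-1. Atp5o, which links stalk and head, was read in 1 mouse of each group. It stood at 0.289, 75.5 and 0.0279 CPM in controls, 0.131, 0.0562 and 111 CPM under anti-CTLA-4 and 0.196, 255 and 3.89 CPM under anti-PD-1.

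Subunit c forms the rotating ring, and Atp5g1, Atp5g2 and Atp5g3 differ only in the import sequence that is cut off. Atp5g1 (ENSMUSG00000006057, chromosome 11, 96068852 to 96075670) was the one gene of the 75 to pass edgeR's test. It stood at 0.131, 363 and 290 CPM under anti-CTLA-4, 0.118, 0.151 and 4.88 CPM under anti-PD-1 and 121, 75.2 and 0.112 CPM in controls. It was high in 2 of 3 anti-CTLA-4 mice and 2 of 3 controls and in no anti-PD-1 mouse, and because anti-CTLA-4 replicate 1 was near 0 the treated groups overlapped. Atp5g1 was higher under anti-CTLA-4 than under anti-PD-1 by a fitted log2 change of 8.05 (SE 2.27, adjusted p = 0.0496), next to the threshold of 0.05, and by 6.55 without anti-CTLA-4 replicate 2. Over 17 alternative fits the adjusted p ranged from 0.000495 to 0.627, and only DESeq2 and the fit without anti-CTLA-4 replicate 1 kept it below 0.05. DESeq2 gave a log2 change of 10.6, and the part of its scaling of anti-CTLA-4 replicate 2 in that value was not tested. Against Control neither antibody passed for Atp5g1 (2.86 under anti-CTLA-4, SE 1.79, adjusted p = 0.537, or 1.39 without its replicate 2, and -5.19 under anti-PD-1, SE 1.998, adjusted p = 0.823).

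Atp5g2 stood at 67.6, 158 and 0.0838 CPM in controls, 73.0, 0.141 and 72.7 CPM under anti-CTLA-4 and 202, 87.9 and 146 CPM under anti-PD-1. It was read in all 3 anti-PD-1 libraries, each above all anti-CTLA-4 libraries, and 35.7% of its 76-base stretches recur in other genes. Atp5g3 stood at 84.5, 199 and 38.9 CPM in controls, 9.42, 0.112 and 366 CPM under anti-CTLA-4 and 33.0, 0.242 and 56.5 CPM under anti-PD-1. Summed over the 3 genes, subunit c stood at 273, 433 and 39.1 CPM in controls, 82.5, 363 and 729 CPM under anti-CTLA-4 and 235, 88.3 and 207 CPM under anti-PD-1. No library lacked subunit c, but the source differed: Atp5g1 gave 99.9% of it in anti-CTLA-4 replicate 2, Atp5g2 gave 99.6% in anti-PD-1 replicate 2 and 70.4% and 85.9% in the other anti-PD-1 mice, and Atp5g3 gave 99.5% in Control replicate 3. The group sums overlapped, at 248 ± 198, 391 ± 324 and 177 ± 77.8 CPM. As for Atp5g1, the mean sum was higher under anti-CTLA-4 than under anti-PD-1, and no test was run on the sum. These shares are of CPM, not corrected for length.

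**Figure D4:**
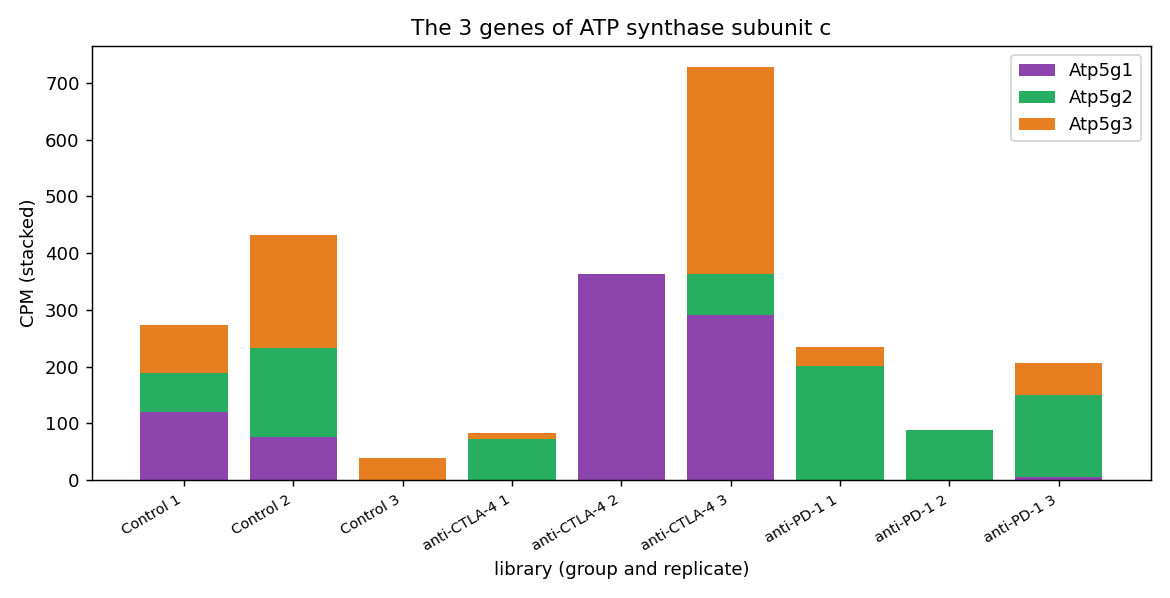
CPM of Atp5g1, Atp5g2 and Atp5g3, stacked, in each library (horizontal axis). Every bar is above 0, Atp5g1 is nearly missing from the 3 anti-PD-1 libraries and from Control replicate 3 and anti-CTLA-4 replicate 1, and 3 libraries rest on 1 gene.

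In all, 7858 genes had enough counts to be tested, 61 of the 75 among them: 26 of complex I, 4 of II, 6 of III, 11 of IV and 14 of V. For anti-CTLA-4 against Control, 0 of the 61 passed, where 29 of all genes (0.369%) did, and 5 of the 61 had an unadjusted p under 0.05, against 11.3% of all genes. For anti-PD-1 against Control, 0 passed, where 6 of all genes (0.0764%) did, and 4 had an unadjusted p under 0.05, against 6.01%. For anti-CTLA-4 against anti-PD-1, 1 passed, Atp5g1, where 65 of all genes (0.827%) did, 64 of them higher (0.814%), and 8 had an unadjusted p under 0.05, against 14.1%. These shares gave the respiratory genes no excess over the table. The counts over all genes rest on single libraries: without anti-CTLA-4 replicate 2 they were 0, 1 and 6 in place of 29, 6 and 65, and leaving out each library in turn gave 0 to 79, 0 to 5 and 6 to 145.

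DESeq2 called more, and again at a rate near its own background. Against Control it called 4 under anti-CTLA-4, all lower (Ndufa1, Ndufb7, Ndufs3 and Uqcr10), where it called 13.2% of all genes it gave an adjusted p, 9.86% lower. Under anti-PD-1 it called 7 (Ndufa2, Ndufa8, Ndufb7, Ndufs8 and Uqcr10 lower, Ndufb6 and Ndufs7 higher), where it called 12% of genes, 8.55% lower and 3.4% higher. Between the antibodies it called 6 (Atp5g1, Ndufa2, Ndufc2 and Ndufs8 higher under anti-CTLA-4, Ndufa1 and Ndufs3 lower), where it called 16%, 6.67% higher and 9.31% lower. It gave an adjusted p to 49 of the 75 genes in each comparison, among them Ndufb6 and Ndufs7, which edgeR's filter had left out.

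Counted by libraries that did not overlap, Atp5b was the 1 gene above the controls under anti-CTLA-4 (1.57% of all tested genes), and Atp5c1, Ndufa4, Ndufb7, Ndufv3 and Uqcr10 were the 5 below (10.4%). Under anti-PD-1, Ndufa5 and Ndufa6 lay above the controls (3.45%) and Cox8a, Ndufb7 and Uqcr10 below (7.33%). Between the antibodies, Atp5b and Sdha lay above under anti-CTLA-4 (2.81%), and Atp5g2, Atp5h, Ndufa1, Ndufa6 and Uqcrb below (6.95%). Of the 61 tested genes these are 6, 5 and 7, against 11.9%, 10.8% and 9.76% of all tested genes. The fitted change was positive for 33, 40 and 30 of the 61 in the 3 comparisons, where 50.2%, 52.4% and 49.1% of all genes were positive. The median log2 change of the 61 was 0.13, 0.36 and -0.18, against 0.0077, 0.074 and -0.049 over all genes; as the comparisons share libraries, these are not independent. Single libraries set the sign of each median. For anti-CTLA-4 against Control it was -0.0057 without anti-CTLA-4 replicate 1 and -0.28 without replicate 3. The median over all genes moved as well, to -0.75 and -0.74 in those fits. For anti-PD-1 against Control the median of the respiratory genes was -0.28 without anti-PD-1 replicate 2, against -0.13 over all genes. Between the antibodies it was 0.14 without anti-CTLA-4 replicate 2, 0.10 without anti-PD-1 replicate 1 and 0.42 without anti-PD-1 replicate 2. Over all genes the medians in those fits were -0.20, 0.19 and 0.079.

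The other nuclear genes of the pathway gave 1 call after adjustment. Of 16 tested assembly factors (45 in the table) 0 passed against Control. At an unadjusted p under 0.05 were 6 of the 16 for anti-CTLA-4 and 4 for anti-PD-1 (11.3% and 6.01% of all genes). Both were larger shares of the 16 than over all genes, and no test was run on the list. Between the antibodies 4 had an unadjusted p under 0.05 (14.1% of all genes) and 1 passed, Tmem126b, a complex I assembly factor, higher under anti-CTLA-4 (adjusted p = 0.00626, edgeR). It stood at 0.0656, 440 and 0.0918 CPM under anti-CTLA-4, at most 0.0877 CPM under anti-PD-1 and at 0.337, 4.05 and 11.3 CPM in controls, so the level was high in anti-CTLA-4 replicate 2 alone. Tested beside them were 12 genes of the tricarboxylic acid cycle, 7 of electron carriers and ubiquinone synthesis, and 8 regulators of mitochondrial biogenesis. The ATP synthase inhibitor Atpif1 was tested too, and 0 of these genes passed in any comparison. In that order, 3, 2, 0 and 0 had an unadjusted p under 0.05 for anti-CTLA-4 against Control (11.3% of all genes). For anti-PD-1 against Control, 1, 0, 0 and 0 had one (6.01%), and between the antibodies 2, 2, 0 and 0 (14.1%). Cycs, the electron carrier between complexes III and IV, stood at 52.8, 8.01 and 0.447 CPM in controls, 0, 1.38 and 0 CPM under anti-CTLA-4 and 83.3, 62.6 and 35.7 CPM under anti-PD-1. In anti-CTLA-4 replicate 2 the carrier and ubiquinone genes summed to 1.55 CPM against 63.8 to 550 CPM elsewhere, and the regulators to 32.6 CPM against 785 to 1610 CPM, with Hif1a at 1.52 CPM against 305 to 1054 CPM.

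The mitochondrial genome's own subunit transcripts, which the cell makes by a separate polymerase, were far more abundant. Their 13 genes summed to 85084, 51404 and 50015 CPM in controls, 75178, 97166 and 69071 CPM under anti-CTLA-4 and 43397, 115899 and 54947 CPM under anti-PD-1. The 9 tested gave 0 calls, and the lowest adjusted p was 0.0708 (edgeR), for anti-CTLA-4 against Control. The fitted change was positive for 9, 9 and 6 of the 9 in the 3 comparisons, where 50.2%, 52.4% and 49.1% of all genes were positive. An unadjusted p under 0.05 was found for 3, 0 and 1 of them, against 11.3%, 6.01% and 14.1% of all genes. For comparison, 71.1% to 90% of 90 cytosolic ribosomal protein genes and 33.3% to 79.5% of 39 proteasome genes were detected per library, against 22.7% to 68% of the 75, with all 3 low values in anti-CTLA-4 replicate 2.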

How the data were processed

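The authors deposited raw counts per gene symbol for 9 libraries (n = 3 mice per group), read as 76-nt pairs, per the labels' protocols. Per the submitters' processing notes, the tools were TopHat2, HTSeq and DESeq2 on GRCm38; their versions, the annotation and the strand setting were not given in the sources used here. HTSeq's entries that name no gene entered neither library sizes nor tests: no feature took 27.1% to 42.0% of a library, not unique 24.3% to 31.1% and ambiguous 0.631% to 1.13%. Reads that near-identical copies share were thus mostly uncounted, so genes with copies may be read low: 24 of 73 genes share a 76-base stretch with another gene, 9 of them over at least 10% of their stretches. Antisense and overlapping genes cannot be told apart without the strand setting: 26 genes share exon bases with an overlapping gene, 9 of them at least 10%.

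Gene counts summed to 25530333 to 41508589 per library. CPM is the count per 1e+06 gene counts, with no factor. Reads carry no molecular identifiers, so floors (3 counts) and intervals cover counting error only.

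Genes were tested in edgeR 4.0.16 (R 4.3.3) by quasi-likelihood. TMM factors were 1.06 to 1.26, except for anti-CTLA-4 replicate 2 (0.407) and anti-PD-1 replicate 2 (0.830). The model held the group alone, was fitted to the 9 libraries together on the 7858 genes that filterByExpr kept at its minimum count of 10, and gave Benjamini-Hochberg adjusted p over those genes, with a threshold of 0.05. Each standard error is the log2 change divided by the root of the F statistic. No test was run on sums or shares over genes. Exact permutation of 3 against 3 cannot go below p = 0.1 and was not used.

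Alternatives were DESeq2 1.42.0 (an adjusted p given as NA stays NA), RLE factors, library totals only, other filters, fits of the 2 groups compared, a replicate block, each library left out in turn, and other detection limits. Leaving out anti-CTLA-4 replicate 2 and anti-PD-1 replicate 2 together was added after seeing the data.

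Values in every library, or the highest value where a gene was not read, are given for genes called, the 3 highest per length in each complex, up to 3 higher and 3 lower with the smallest p per comparison, core subunits (1 gene is not reported here) and isoform sets; others named were chosen after their values were seen. The genes, pathway lists and marker lists were chosen with earlier results of these data known. Gene models came from GENCODE M21 and promoters from RefSeq (GRCm38.p6), where 62 of 75 symbols matched. The 11 marker lists covered T, dendritic, CD8, NK and B cells, macrophages and monocytes, neutrophils, fibroblasts, tumour epithelium, endothelium and erythroid cells. Besides the sums in the report, the highest sums were 249.8 CPM for dendritic cells (anti-CTLA-4 replicate 3, nearly all Zbtb46), 183.8 CPM for endothelium (anti-CTLA-4 replicate 3, Pecam1 alone, with Cdh5, Kdr and Vwf at 0), 125.2 CPM for CD8 T cells (anti-PD-1 replicate 3, Cd8b1), 84.4 CPM for NK cells (Control replicate 1, Klra4), 68.4 CPM for neutrophils (Control replicate 2), 63.8 CPM for B cells (Control replicate 2), 57.7 CPM for tumour epithelium (anti-PD-1 replicate 1, Epcam, with the keratins at 0) and 2.48 CPM for erythroid cells (anti-PD-1 replicate 2).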

Additional observations from a re-analysis of the deposited data

How the results depend on the processing

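The number of respiratory genes past the threshold stayed at 0 against Control under every edgeR alternative, for both antibodies. DESeq2 called 4 for anti-CTLA-4 and 7 for anti-PD-1 against Control and 6 between the antibodies, where edgeR called 0, 0 and 1; the cause was not tested. The 1 gene called between the antibodies, Atp5g1, was lost, leaving 0, with RLE factors, library totals only, no filter, at least 5 CPM in 3 libraries, only the 2 groups compared, and without the anti-CTLA-4 and anti-PD-1 libraries with fewest genes. Leaving out each library in turn gave 0 to 1, and only the fit without anti-CTLA-4 replicate 1 kept the call; its adjusted p was 0.523 when anti-CTLA-4 replicate 2 was left out. The replicate numbers are labels only. After each group's mean was taken off every gene, the remaining deviations of libraries with the same number correlated at -0.0345 to 0.0182. Those of libraries with different numbers and groups correlated at -0.0229 to 0.0296. With a replicate block 0, 0 and 0 respiratory genes and 10, 1 and 12 of all genes passed, against 29, 6 and 65.

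The RLE factor was 0.0622 for anti-CTLA-4 replicate 2, against 0.897 to 1.68 for the other libraries. RLE factors moved the median log2 change of all genes to 0.56, 0.26 and 0.45 in the 3 comparisons. That of the respiratory genes moved to 0.60, 0.60 and 0.24, from 0.13, 0.36 and -0.18. Without anti-CTLA-4 replicate 2, and without it and anti-PD-1 replicate 2, Ndufb8 turned to -0.68 and -0.68 for anti-CTLA-4 against Control; leaving out each library in turn gave -0.68 to 3.68. Of 96 fold changes of named genes, 40 that did not pass changed sign under at least 1 alternative. The limit of 5 CPM is at least 128 counts in every library; how depth or the amplification bears on detection was not tested.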
